A study of Mus musculus with 12 samples.

Results

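Capillary endothelium was followed through 6 marker genes: Plvap, Emcn, Gpihbp1, Car4, Aqp1 and Rgcc. They were chosen by name as markers of fenestrated endothelium and of the continuous capillaries of muscle, and all 6 were found among the 30389 genes of the table. The table held 12 libraries of polyadenylated RNA from C57BL/6 mouse muscle. The 6 vascular anomaly libraries came from 3 animals of genotype VEC-Cre; SB Transposase; onc3, with 2 pieces of tissue from each animal. The 6 normal muscle libraries came from 3 animals of genotype SB Transposase; onc3, again with 2 pieces from each. Transposase and onc3 transposon were thus shared by all animals, and only the anomaly animals carried Cre, driven in endothelial cells by the VE-cadherin promoter. In anomaly animal 2 the pieces were labelled as separate lesions. Ages were not given. The normal animals are numbered here in deposit order. The study set anomalies from an endothelial mutagenesis screen against normal muscle.

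Capillaries of skeletal muscle are continuous: their endothelial cells form an unbroken wall, with many caveolae and few fenestrae. Fenestrated capillaries, as in endocrine glands and gut, have pores that are closed by thin diaphragms. Plvap encodes the protein of these diaphragms, which also spans the mouths of caveolae and transendothelial channels. Emcn encodes endomucin, a sialomucin of the endothelial surface of capillaries and veins. Gpihbp1 encodes the lipid-anchored protein that carries lipoprotein lipase to the capillary lumen, where the lipase releases fatty acids for the muscle. Car4 encodes carbonic anhydrase 4, an enzyme anchored on the luminal face of capillaries that interconverts carbon dioxide and bicarbonate. Aqp1 encodes a water channel of continuous endothelium and of red cells. Rgcc encodes a regulator of the cell cycle that is often used as a capillary marker.

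The stretches before the transcription start were available for Emcn, Car4, Aqp1 and Rgcc, 4 of the 6 genes. Those of 3 genes are shown because these genes took different courses in the anomalies: Emcn was higher in every anomaly animal, Car4 was lower, and Aqp1 varied between animals. Each is the 250 bases before the start in RefSeq (GRCm38.p6), written 5′ to 3′ on the gene's strand, with capitals for letters that match a searched motif. They lie at chr3:137340828-137341077, chr11:84957504-84957753 and chr6:55336049-55336298, all on the plus strand.
Emcn: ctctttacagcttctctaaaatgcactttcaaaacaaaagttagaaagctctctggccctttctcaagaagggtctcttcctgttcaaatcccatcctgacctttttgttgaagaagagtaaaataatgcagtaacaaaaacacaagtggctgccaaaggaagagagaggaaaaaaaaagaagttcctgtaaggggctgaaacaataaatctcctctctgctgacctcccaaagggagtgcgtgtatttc
Car4: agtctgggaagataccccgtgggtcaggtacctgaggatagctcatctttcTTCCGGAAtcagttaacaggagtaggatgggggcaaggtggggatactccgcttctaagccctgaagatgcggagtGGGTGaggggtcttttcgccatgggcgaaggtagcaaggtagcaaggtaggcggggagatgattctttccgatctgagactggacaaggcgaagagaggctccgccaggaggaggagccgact
Aqp1: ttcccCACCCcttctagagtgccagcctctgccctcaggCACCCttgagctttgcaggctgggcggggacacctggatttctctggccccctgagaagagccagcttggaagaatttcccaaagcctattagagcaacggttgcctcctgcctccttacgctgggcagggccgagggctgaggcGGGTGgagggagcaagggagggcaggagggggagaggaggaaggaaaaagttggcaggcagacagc
The motifs searched, on both strands of 300 bases that include 50 bases after the start, were the ETS motif CCGGAA, the FOX motif TGTTTAC, the SOX motif ACAATG, the GATA motif AGATAA, the KLF motif CACCC, the hypoxia element ACGTG and the MEF2 motif. The Emcn window held none of these motifs. Shorter runs such as GGAA, which occur in the printed Emcn stretch, were not searched. In Car4 the capitals around position -199 are CCGGAA on both strands, in an overlapping pair, a motif found in 14.9% of 32851 such windows. CACCC was present once in Car4 and 3 times in Aqp1, and 57.5% of all windows held it. ACGTG lay after the start of Car4, outside the printed stretch, and was in 19.6% of windows. GC content was 40.8% in the Emcn stretch, 56.4% in that of Car4 and 62% in that of Aqp1. These matches are descriptions of the letters and not of binding.

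Recovered depth was 254404 to 18476461 reads in anomaly libraries and 17380211 to 32155879 reads in normal libraries. Piece 1 of anomaly animal 1 was the shallow library, where 1 recovered read was worth 1.85 CPM, against at most 0.0719 CPM in every other library. Reads were inferred from the steps of the values, and in that library they may not be reads as sequenced, which would change its limits. As a check of the tissue, 12 general endothelial genes such as Cdh5 and Pecam1 together reached 2081 to 7104 CPM in anomaly libraries and 335 to 515 CPM in normal libraries. Cdh5, which encodes VE-cadherin, averaged 1141 ± 138 CPM in anomalies and 97.3 ± 20.2 CPM in normal muscle (SD, n = 3 animals each). The 10 markers of muscle fibres summed to 254 to 38752 CPM in anomaly libraries and 328825 to 381038 CPM in normal libraries. In bulk tissue, fewer cells of a type and less RNA per cell cannot be told apart.

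Of the 6 genes, Plvap, Emcn and Gpihbp1 were higher in the anomalies, Car4 was lower, and Aqp1 and Rgcc did not pass the test (limma, Benjamini-Hochberg adjusted p under 0.05, 3 animals against 3). Over all 14687 genes tested, 63.4% were called, 32.4% higher and 31% lower, so 3 of 6 higher and 1 of 6 lower are read against a background in which most genes were called. The median difference was 1.48 (log2) over the 6 genes and 0.09 over all genes. The split of calls over all genes depended on scaling: 4765 genes were higher and 4553 lower as deposited, and 8962 were higher and 1850 lower when scaled by library totals alone. Animal means on the log2 scale did not overlap between groups for 4 of the 6 genes, against 73% of all genes. All log2 differences here are anomaly minus normal, on log2(CPM + 1) averaged over the 2 pieces of an animal.

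**Figure D1:**
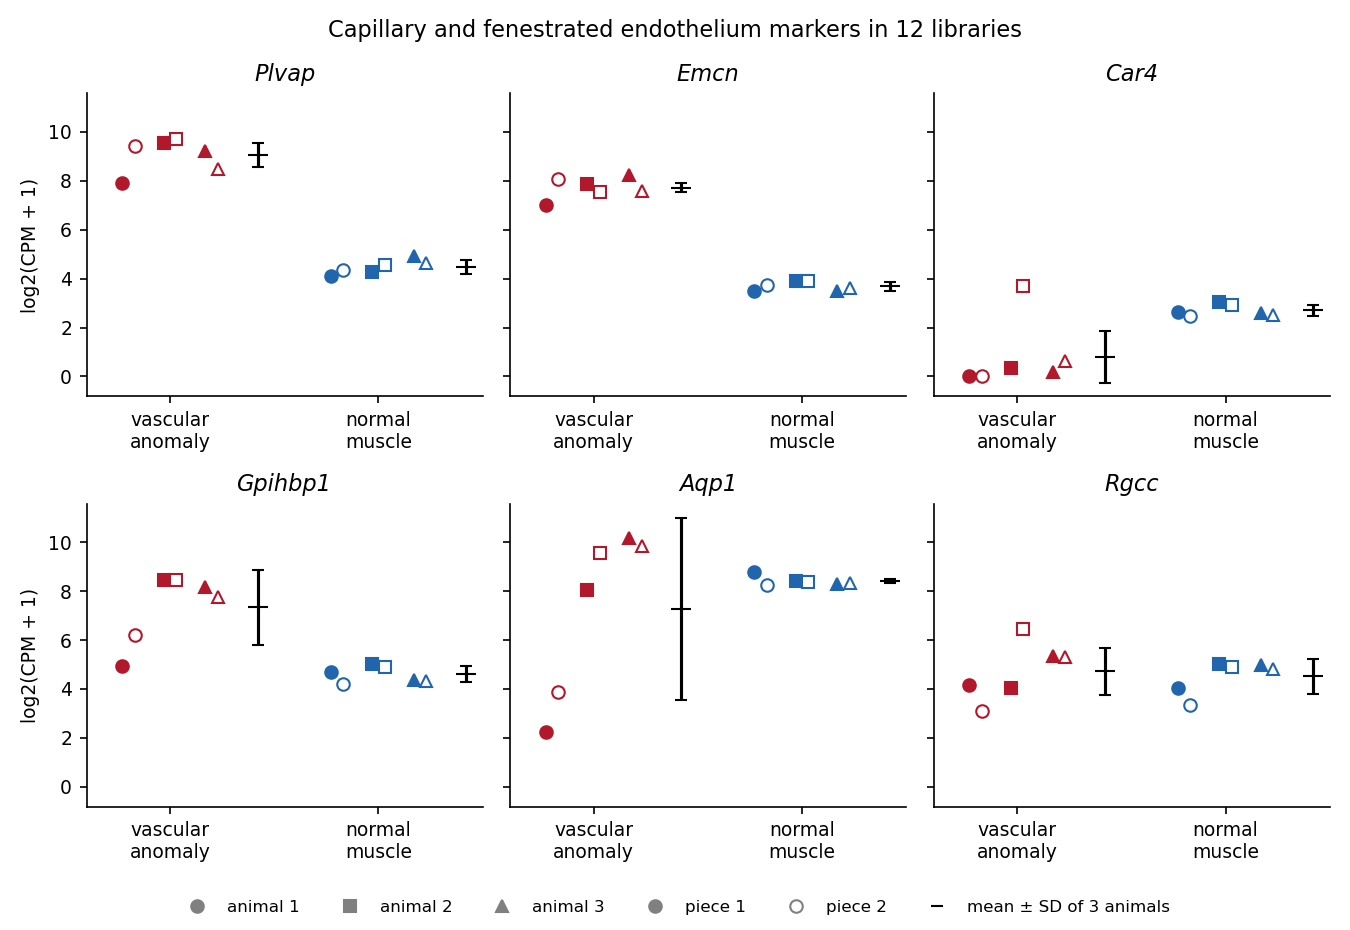
Level of each of the 6 capillary genes in the 12 libraries, in log2(CPM + 1), with anomaly libraries left of normal muscle libraries symbols for animals, filled points for piece 1, open points for piece 2, and black bars for the mean and SD of 3 animals. Plvap and Emcn separate the groups fully, as 56.3% of all genes do. Aqp1 runs from 3.71 to 1166 CPM among anomaly libraries. Car4 lies below normal muscle in every anomaly library but piece 2 of animal 2 and the shallow piece 1 of animal 1, whose 0 allows up to 5.56 CPM.

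Plvap (ENSMUSG00000034845, GRCm38 chromosome 8, 71497765 to 71511752, minus strand, protein coding) showed the largest difference of the 6. It was at 243 and 685 CPM in anomaly animal 1, 743 and 828 CPM in animal 2, and 603 and 358 CPM in animal 3. Normal muscle held 16.4 and 19.2 CPM in animal 1, 18.5 and 22.7 CPM in animal 2, and 29.4 and 23.6 CPM in animal 3. Every anomaly library was above every normal library, in data where the libraries of 56.3% of all genes did not overlap between groups. The anomaly mean was 577 ± 181 CPM and the normal mean 21.6 ± 4.46 CPM (SD, n = 3 animals each). The log2 difference was 4.58 ± 0.30 (SE; 95% interval 3.86 to 5.29; limma adjusted p = 1.62e-04). The diaphragm gene was higher in all 3 anomaly animals, by 4.20, 5.14 and 4.39 log2 over the normal mean.

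Emcn (ENSMUSG00000054690, chromosome 3, 137341067 to 137432185, plus strand, protein coding) was the most even of the genes among anomaly animals. It was at 128 and 268 CPM in anomaly animal 1, 234 and 188 CPM in animal 2, and 298 and 192 CPM in animal 3. Normal muscle held 10.3 and 12.4 CPM, 13.8 and 14.0 CPM, and 10.2 and 11.3 CPM in its 3 animals. The libraries of the groups did not overlap, which 56.3% of all genes also showed. The mean was 218 ± 24.2 CPM in anomalies and 11.99 ± 1.67 CPM in normal muscle (SD, n = 3 animals each). Endomucin RNA was higher by 4.03 ± 0.17 log2 (SE; 95% interval 3.62 to 4.45; limma adjusted p = 1.05e-04). Its animals lay 3.85, 4.03 and 4.22 log2 above the normal mean.

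Gpihbp1 (ENSMUSG00000022579, chromosome 15, 75596628 to 75599481, plus strand, protein coding), the partner of lipoprotein lipase, was higher with an uneven size. Anomaly animal 1 held 29.6 and 73.1 CPM, animal 2 held 348 and 354 CPM, and animal 3 held 287 and 214 CPM. Normal libraries ranged from 17.6 to 31.8 CPM, at 25.1 and 17.6, 31.8 and 29.0, and 19.8 and 19.1 CPM in the 3 animals. The shallow piece of anomaly animal 1 lay within the normal range, and the other 5 anomaly libraries were above it. The mean was 218 ± 153 CPM in anomalies and 23.7 ± 5.85 CPM in normal muscle (SD, n = 3 animals each). The difference was 2.74 ± 0.73 log2 (SE; 95% interval 0.96 to 4.51; limma adjusted p = 0.0173). It was 3.61 ± 0.26 log2 without anomaly animal 1 (adjusted p = 4.54e-04). The call ended without anomaly animal 2 (2.17 log2, adjusted p = 0.0517), normal animal 1 (2.67 log2, 0.0556) or normal animal 3 (2.62 log2, 0.0591); over its 19 alternatives the adjusted p ran from 4.54e-04 to 0.0591.

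Car4 (ENSMUSG00000000805, chromosome 11, 84957786 to 84966044, plus strand, protein coding), the luminal carbonic anhydrase, was lower in the anomalies. No read was recovered in either piece of anomaly animal 1, which allows up to 5.56 CPM in piece 1 and 0.135 CPM in piece 2 at 3 reads. Animal 2 held 0.265 and 11.9 CPM, and animal 3 held 0.136 and 0.566 CPM. Normal libraries held 4.56 to 7.20 CPM, at 5.27 and 4.56, 7.20 and 6.55, and 5.03 and 4.76 CPM in the 3 animals. Piece 2 of anomaly animal 2 exceeded every normal library, and 4 other anomaly libraries were below all of them. The shallow piece 1 of anomaly animal 1 cannot be placed, since its limit lies within the normal range. The 6 adipocyte markers summed to 531 CPM in piece 2 of anomaly animal 2, where Car4 was high. They summed to 0.441 to 30.6 CPM in the other anomaly libraries and 48.4 to 260.3 CPM in normal libraries. Their part in the Car4 level was not tested.

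The mean of Car4 was 2.14 ± 3.40 CPM in anomalies and 5.56 ± 1.14 CPM in normal muscle (SD, n = 3 animals each). The difference was -1.89 ± 0.53 log2 (SE; 95% interval -3.17 to -0.61; limma adjusted p = 0.0201). The added 1 CPM compresses it, since 4 anomaly libraries were below 1 CPM and another had no read: it was -2.47 log2 with 0.5 CPM added. On the values as deposited it was -5.01 ± 1.80 log2 (SE; limma adjusted p = 0.0478). There the common floor sets the value of both libraries of anomaly animal 1, which had no read. Without piece 2 of anomaly animal 2, a choice made after seeing the data, it was -2.45 ± 0.23 log2 (adjusted p = 5.04e-04). The call ended with no filter (adjusted p = 0.0634), with library totals (0.102), with voom (0.0578), with piece 2 alone (0.297) and without normal animal 1 (0.0534), 2 (0.0660) or 3 (0.0539). Over its 19 alternatives the adjusted p ran from 5.04e-04 to 0.297, and the direction was lower in each.

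Aqp1 (ENSMUSG00000004655, chromosome 6, 55336432 to 55348555, plus strand, protein coding), the water channel, had no common direction among the anomalies. Anomaly animal 1 held 3.71 and 13.5 CPM, which rest on 2 and 300 reads. Animal 2 held 260.5 and 760.3 CPM, and animal 3 held 1166 and 915 CPM. Normal muscle was narrow, at 434 and 307, 338 and 333, and 314 and 325 CPM in its 3 animals. Both pieces of anomaly animal 1 were below every normal library, both pieces of animal 3 were above, and animal 2 had 1 piece on either side. Relative to the normal mean the animals stood at -5.37, 0.39 and 1.60 log2. The group difference was -1.13 ± 1.72 log2 (SE; 95% interval -5.27 to 3.02; limma adjusted p = 0.580), with means of 520 ± 516 CPM in anomalies and 342 ± 26.3 CPM in normal muscle (SD, n = 3 animals each). Without anomaly animal 1 the sign turned, to 1.00 ± 0.43 log2 (adjusted p = 0.0883, within 0.0883 to 0.999 over 19 alternatives).

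Because Aqp1 is also the water channel of red cells, 11 red cell markers were summed beside it. They averaged 49863 CPM in anomaly animal 1, 2389 CPM in animal 2 and 633 CPM in animal 3, against 111 to 227 CPM in normal animals. The animal with the most red cell RNA held the least Aqp1 RNA; the part of red cells in the Aqp1 level was not tested.

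Rgcc (ENSMUSG00000022018, chromosome 14, 79288756 to 79301645, minus strand, protein coding), the cell cycle regulator, overlapped between the groups. Anomaly animal 1 held 16.7 and 7.55 CPM, animal 2 held 15.3 and 86.0 CPM, and animal 3 held 39.5 and 39.0 CPM. Normal muscle held 15.3 and 9.18, 31.3 and 28.9, and 30.4 and 27.3 CPM in its 3 animals. The highest value was again in piece 2 of anomaly animal 2. The mean was 34.0 ± 19.8 CPM in anomalies and 23.7 ± 9.96 CPM in normal muscle (SD, n = 3 animals each). The difference was 0.21 ± 0.56 log2 (SE; 95% interval -1.15 to 1.58; limma adjusted p = 0.750), and it turned to -0.19 without that piece. It was -0.17 with piece 1 alone and 0.60 with piece 2 alone, and -0.21 with a recomputed trimmed mean and 1.32 with library totals (adjusted p = 0.0638); none passed the test. With each animal left out in turn it ran from -0.20 to 0.77 log2.

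The pieces also allowed the 3 anomaly animals to be compared with each other. The limma F test was fitted to all 12 libraries, with a mean for each of the 6 animals. Its p-value measures only the spread between pieces of an animal, with the pieces of normal animals included. Of all genes tested, 35.1% differed among the anomaly animals at an adjusted p under 0.05. Gpihbp1 (adjusted p = 3.25e-04) and Aqp1 (adjusted p = 2.24e-05) were the genes of the 6 that differed. Both were lowest in animal 1, as all 12 general endothelial genes were, and both were still called without its shallow piece (8.79e-04 for Gpihbp1 and 4.47e-04 for Aqp1). The adjusted p was 0.184 for Plvap, 0.644 for Emcn, 0.114 for Car4 and 0.0761 for Rgcc.

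To set each gene beside the amount of endothelial RNA, its log2 level was taken minus the mean log2 level of the 12 general endothelial genes in the same animal. That mean was 8.02 ± 0.79 in anomalies and 4.71 ± 0.20 in normal muscle (SD, n = 3 animals each). The gap of 3.31 log2 enters every gene's ratio, so that 86.9% of all genes were called on this scale, 86.4% lower and 0.538% higher, and the p-values of genes are not independent. Of the 6 genes, 1 was higher (Plvap), 3 were lower (Car4, Aqp1 and Rgcc) and 2 were not called (Emcn and Gpihbp1). A share of 3 in 6 lower is below the background.

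Relative to the endothelial mean, Plvap stood at 1.55, 1.27 and 0.26 in anomaly animals 1, 2 and 3, and at -0.56, -0.45 and 0.29 in the normal animals. Anomaly animal 3 lay just below the highest normal animal. The difference was 1.27 ± 0.47 log2 (SE; 95% interval 0.26 to 2.27; limma adjusted p = 0.0202). Plvap was among 79 genes called higher on this scale. With Pecam1 alone as the reference it was 0.78 log2 (adjusted p = 0.0436). The call ended with piece 1 alone (1.29 log2, adjusted p = 0.0591) and without anomaly animal 2 (0.0585), normal animal 1 (0.113) or normal animal 2 (0.0916); over 20 alternatives the adjusted p ran from 0.00206 to 0.113, and the direction was higher in each.

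Emcn stood at 0.41, -0.63 and -0.69 relative to the endothelial mean in the anomaly animals and at -1.17, -0.97 and -0.93 in the normal animals. The difference was 0.72 ± 0.44 log2 (SE; 95% interval -0.20 to 1.65; limma adjusted p = 0.129). The groups did not overlap for Emcn, and the test did not call it. The share of all genes without overlap was not counted on this scale. With Pecam1 alone as the reference the Emcn difference was 0.24 log2. Gpihbp1 stood at -1.55, 0.11 and -0.64 in the anomaly animals and at -0.32, 0.10 and -0.13 in the normal animals. Its difference was -0.57 ± 0.47 log2 (SE; 95% interval -1.57 to 0.42; limma adjusted p = 0.258). For Gpihbp1 the interval includes both no difference and a drop of more than 1 log2.

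Car4 was the lowest of the 6 relative to the endothelial mean, at -7.13, -6.33 and -8.18 in the anomaly animals and -2.22, -1.89 and -1.93 in the normal animals. In anomaly animal 1, with no Car4 read, the added 1 CPM sets its value. The difference of Car4 was -5.20 ± 0.61 log2 (SE; limma adjusted p = 1.38e-06). It was -8.38 ± 1.32 log2 (SE) on the values as deposited, where the common floor sets the value of anomaly animal 1. Rgcc stood at -3.51, -3.11 and -3.26 in the anomaly animals and at -1.10, 0.09 and 0.41 in the normal animals, a difference of -3.10 ± 0.48 log2 (SE; limma adjusted p = 2.05e-05). Aqp1 stood at -4.08, 0.46 and 1.42 in the anomaly animals and at 3.73, 3.52 and 3.84 in the normal animals, a difference of -4.44 ± 0.98 log2 (SE; limma adjusted p = 5.73e-04). For all 3 genes each anomaly animal was below each normal animal, and the call held in all 20 alternatives. The share of all genes separated in this way was not counted on this scale, where 86.4% of all genes were called lower. The median gene stood at -3.22 log2 on this scale, near Rgcc. With each animal left out in turn, Aqp1 ran from -5.51 to -2.76 log2; its value without anomaly animal 1, -2.76, stood above the median gene of that fit at -3.67 log2.

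**Figure D2:**
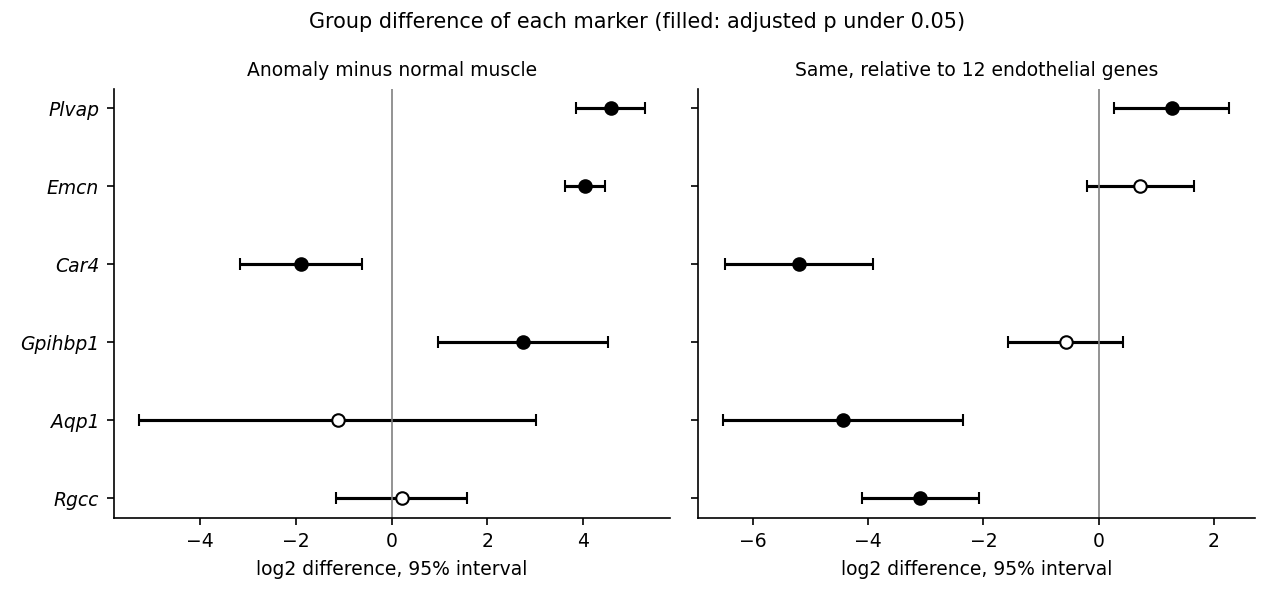
Log2 difference of anomaly minus normal muscle for each of the 6 capillary genes with its 95% interval over 3 animals against 3, on log2(CPM + 1) at left and relative to the mean of 12 endothelial genes at right; filled points had an adjusted p under 0.05. At left Plvap, Emcn and Gpihbp1 lie above 0 and Car4 below; at right Plvap lies above 0, Car4, Aqp1 and Rgcc lie below, and Emcn and Gpihbp1 cross 0.

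**Figure D3:**
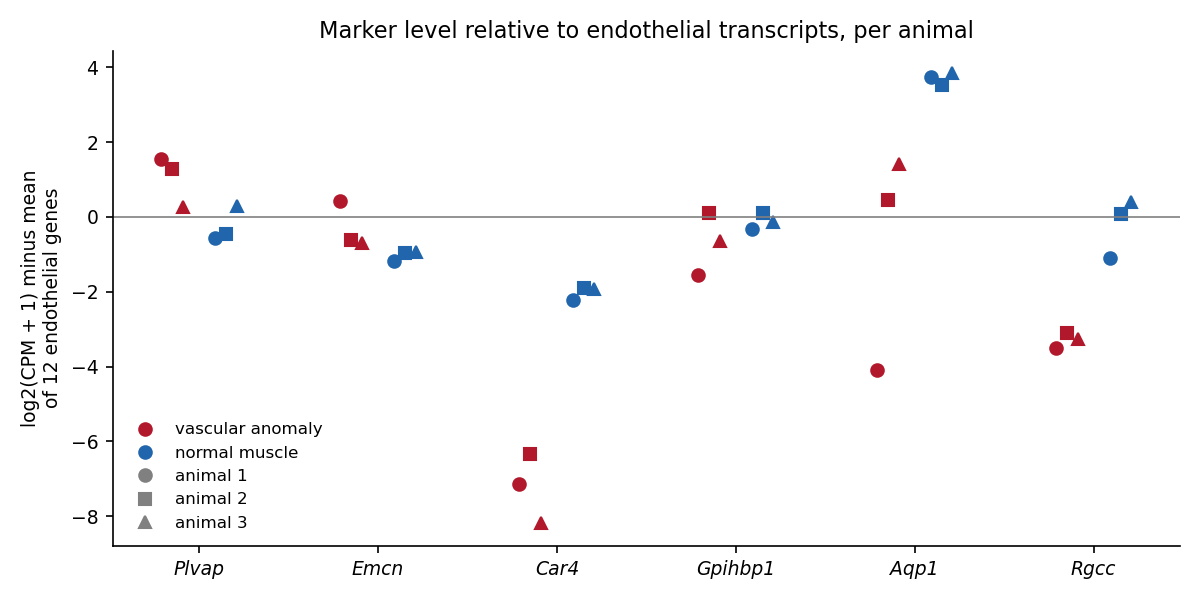
Level of each of the 6 capillary genes minus the mean log2 level of 12 general endothelial genes in the same animal, with anomaly animals left of normal animals. Plvap lies higher in anomalies apart from animal 3, Emcn and Gpihbp1 lie between -1.55 and 0.41 in every animal, and Car4, Aqp1 and Rgcc lie lower in each anomaly animal.

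Levels of different genes were compared per kilobase of merged exons. In anomalies the order from high to low was Plvap (290 ± 91.1 CPM per kilobase), Aqp1 (198 ± 196), Gpihbp1 (85.2 ± 59.7), Emcn (40.3 ± 4.47), Rgcc (37.1 ± 21.6) and Car4 (1.09 ± 1.73). In normal muscle the order was Aqp1 (130.2 ± 10.03 CPM per kilobase), Rgcc (25.9 ± 10.9), Plvap (10.9 ± 2.24), Gpihbp1 (9.29 ± 2.29), Car4 (2.83 ± 0.58) and Emcn (2.22 ± 0.31); all errors are SD over 3 animals. In anomalies the ranges over animals of Plvap and Aqp1 overlapped, as did those of Aqp1, Gpihbp1, Emcn and Rgcc with their neighbours. Car4 was last, with its highest animal (3.08) just below the lowest animal of Aqp1 (3.27). Single libraries overlapped, with Car4 at 6.03 in piece 2 of animal 2 and Aqp1 at 1.41 and 5.13 in animal 1. In normal muscle Aqp1 stood apart at the top, and the ranges of Plvap and Gpihbp1 overlapped, as did those of Car4 and Emcn. By the mean, the diaphragm gene was first in anomalies, although in anomaly animal 3 Aqp1 (396 CPM per kilobase) was above Plvap (242). In normal muscle Plvap came after Aqp1 and Rgcc, and also after Gpihbp1 (14.4) when the longest transcript gave the length.

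Genes that work with the 6 were read as lists. Their counts are set against all genes tested, of which 32.4% were higher and 31% lower. Among partners of Plvap at caveolae, 6 of 8 were higher, 0 were lower and 2 were not called, with a median difference of 2.08 log2 against 0.09 over all genes. By animal the list median was 1.47, 2.37 and 2.36 log2 in anomaly animals 1, 2 and 3. Cavin3, a coat protein of caveolae, was higher by 3.53 ± 0.23 log2 (SE; limma adjusted p = 1.62e-04), at 114 ± 24.2 CPM in anomalies and 8.56 ± 1.20 CPM in normal muscle (SD, n = 3 animals each). Ehd2 and Ehd4, related ATPases of which Ehd2 sits at the caveolar neck, were higher by 2.67 ± 0.44 and 1.73 ± 0.17 log2. Cav2, a caveolin, was higher by 2.08 ± 0.19 log2. Relative to the endothelial mean, 0 of the 8 were higher, 5 were lower and 3 were not called, among them Cavin3 at 0.22 ± 0.42 log2. On that scale 86.4% of all genes were called lower. The median was -1.23 log2 over the list and -3.22 log2 over all genes.

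Around Gpihbp1, the list of capillary lipid transport was mixed: 2 of 12 were higher, 3 were lower and 7 were not called, with a median of 0.47 log2. Among all genes tested, 63.4% were called, a larger share than in this list. Fabp5, a fatty acid binding protein, was higher by 3.50 ± 0.35 log2 (SE; limma adjusted p = 5.12e-04). Angptl4, a secreted inhibitor of lipoprotein lipase, was higher by 3.70 ± 1.16 log2 (adjusted p = 0.0303), at 5.88, 4.10 and 1.11 log2 over the normal mean in anomaly animals 1, 2 and 3. The Angptl4 call held in 12 of 19 alternatives; it ended with no filter (0.0745), voom (0.0788), with anomaly animals 1 (0.0529) and 2 (0.0898) left out in turn, and with each normal animal left out (0.0941, 0.0561 and 0.0773). Slc27a1, a fatty acid transporter, was lower at -1.96 ± 0.44 log2 (adjusted p = 0.00860), a call that ended with library totals (0.160). Lmf1, needed for maturation of the lipase, was lower at -0.74 ± 0.16 log2 (adjusted p = 0.00721), but stood at 0.33 when scaled by library totals. The lipase gene itself, Lpl, chosen here with its value known, was lower at -2.37 ± 0.82 log2 (adjusted p = 0.0414), while its carrier Gpihbp1 was higher. The Lpl call held in 13 of 19 alternatives, with an adjusted p of up to 0.195 (library totals).

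The lipid list differed by animal. Its median was -0.60, 0.89 and 0.35 log2 in anomaly animals 1, 2 and 3, and 9 of its 12 genes differed among the anomaly animals, against 35.1% of all genes. Of the 12 genes, 7 were lowest in anomaly animal 1, as Aqp1 and Gpihbp1 were, and 4 were highest there. Tcf15, a transcription factor of heart and muscle capillaries, chosen here with its value known, stood at -2.20, 1.48 and 2.76 log2 in the 3 anomaly animals. Fabp5 went the other way, at 4.23, 3.32 and 2.94 log2, as did Angptl4.

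Of 8 other markers of muscle capillaries, 4 were higher, 1 was lower and 3 were not called, with a median of 0.95 log2. Calls in either direction were near the share over all genes, 63.4%. Btnl9, a butyrophilin-like gene of capillaries, was higher by 3.80 ± 0.61 log2 (SE; limma adjusted p = 0.00253). Kdr and Flt1, receptors of vascular endothelial growth factor, were higher by 2.61 ± 0.55 and 1.66 ± 0.24 log2. Timp4, an inhibitor of metalloproteinases, was lower at -3.08 ± 0.44 log2 (adjusted p = 0.00173; 0.0525 with piece 2 alone), and averaged 4.63 ± 3.34 CPM in anomalies and 31.5 ± 4.28 CPM in normal muscle (SD, n = 3 animals each). The genes named as capillary markers included ones called in either direction.

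Of the 4 sialomucins set beside Emcn, 2 were higher and 2 lower, against 32.4% higher and 31% lower over all genes. Cd34, a surface sialomucin of endothelial and stem cells, was higher by 3.78 ± 0.70 log2 (SE; limma adjusted p = 0.00417), and its relative Podxl, podocalyxin, by 2.10 ± 0.49 log2 (adjusted p = 0.0103). Podxl2, the endoglycan gene, was lower at -3.90 ± 0.49 log2 (adjusted p = 0.00110). Cd164, another sialomucin, was lower at -0.75 ± 0.18 log2 (adjusted p = 0.0112), but stood at 0.40 when scaled by library totals, and its adjusted p was 0.0502 without normal animal 2.

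Among other carbonic anhydrases, 7 of 9 had enough reads to test, and 1 was higher, 3 were lower and 3 were not called. Car1 and Car12 were not tested. Over all genes 32.4% were higher and 31% lower. Car3, the abundant enzyme of muscle fibres, was lower at -5.71 ± 0.94 log2 (SE; limma adjusted p = 0.00276). Car14, a membrane-bound form, was lower at -3.82 ± 0.78 log2 (adjusted p = 0.00624), and Car8 at -1.61 ± 0.54 log2 (adjusted p = 0.0368). The Car8 call held in 9 of 19 alternatives, with an adjusted p of up to 0.234. Car13, a cytosolic form, was higher by 2.48 ± 0.49 log2 (adjusted p = 0.00566). Muscle fibre markers moved with the enzymes that were lower, with 9 of 10 lower; their part was not tested.

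Among other aquaporins, 4 of 7 were tested; Aqp3, Aqp5 and Aqp8 were not. Aqp4, the water channel of the muscle fibre membrane, was lower at -4.92 ± 0.54 log2 (SE; limma adjusted p = 6.77e-04), at 1.52 ± 2.28 CPM in anomalies and 55.3 ± 14.3 CPM in normal muscle (SD, n = 3 animals each). Aqp11 was higher by 1.04 ± 0.31 log2 (adjusted p = 0.0244). The Aqp11 call held in 11 of 18 alternatives; it ended with no filter (0.0989), piece 2 alone (0.0537) and the trimmed mean (0.0613), and without anomaly animal 2 (0.0629) or any normal animal (0.0576, 0.0787 and 0.0760). Aqp7, a glycerol channel of fat and capillaries that also stood in the lipid list, was at -0.52 ± 0.86 log2, and turned to 0.51 without anomaly animal 1 and to 0.43 with library totals. Aqp9 was at 0.73 ± 0.40 log2. Neither of the last pair passed the test.

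**Figure D4:**
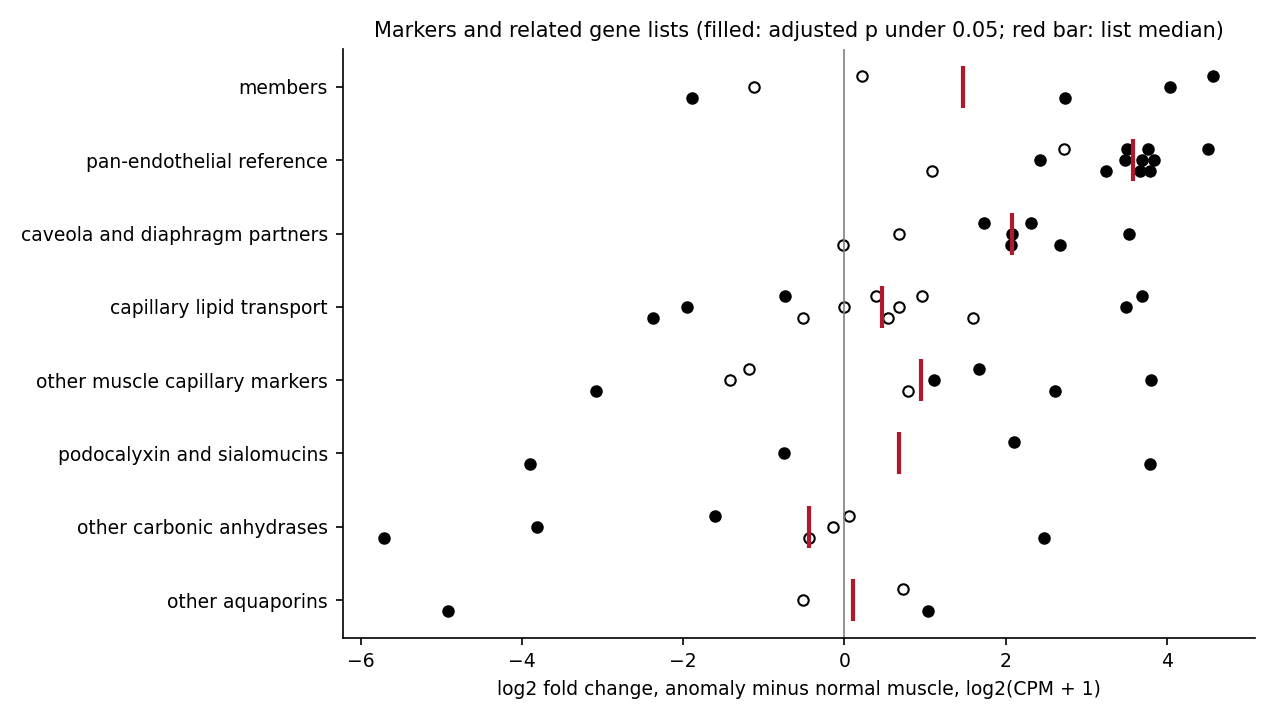
Log2 difference of anomaly minus normal muscle for every tested gene of each list, with the 6 capillary genes in the row of members filled points for an adjusted p under 0.05 (limma), open points for the rest, and a red bar at the list median. The partners of Plvap and the general endothelial genes lie mostly above 0, and the other lists hold genes on either side.

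The 12 general endothelial genes gave a scale for these values: 10 were higher, 0 were lower and 2 were not called, with a median of 3.58 log2. The share called higher over all genes was 32.4%. Plvap and Emcn, at 4.58 and 4.03 log2, were above that median, and Gpihbp1, at 2.74 log2, was below it. Pecam1, an adhesion molecule of endothelial junctions, was higher by 3.80 ± 0.26 log2 (SE; limma adjusted p = 1.99e-04). Cdh5 was higher by 3.50 ± 0.27 log2, Esam, another junction protein, by 3.48 ± 0.25 log2, and Erg, an endothelial transcription factor, by 3.24 ± 0.23 log2.

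The genes whose profile over the 12 libraries was most like that of each capillary gene were found by the root mean square difference of centred log2(CPM + 1) values, over 8787 genes of at least 10 CPM. Nearest to Emcn were Arhgap25 (0.12 log2), Elmo1 (0.19) and Plekhg1 (0.22). Arhgap25 was at 22.2 to 45.7 CPM in anomaly libraries and 0.907 to 1.76 CPM in normal libraries. Nearest to Gpihbp1 were Ushbp1 (0.28), Kctd12b (0.33) and Sema6a (0.34). Ushbp1 was, like Gpihbp1, lower in anomaly animal 1, at 50.03 and 104 CPM, than in animals 2 and 3, at 220.6 to 374 CPM. Nearest to Plvap were Cenpf, a kinetochore protein of dividing cells (0.38), Bok (0.39) and Kbtbd11 (0.39). Cenpf averaged 0.12 CPM in normal muscle, so the added 1 CPM sets its values there. Its difference was 4.47 log2, and 8.13 log2 on the values as deposited. Plvap stood at 4.58 and 4.64 log2 in these fits, so the nearness of Cenpf depends on the added CPM.

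The distances are not scaled to a gene's own spread over the libraries, which was 2.27 log2 (SD) for Aqp1 and 0.89 for Rgcc. Nearest to Car4 were Per3, a clock gene (0.47), Alpl, tissue-nonspecific alkaline phosphatase (0.48), and Gstz1 (0.54). Alpl shared with Car4 its highest anomaly value in piece 2 of animal 2, at 17.7 CPM, against 0 to 3.21 CPM in the other anomaly libraries and 11.7 to 20.3 CPM in normal libraries. Nearest to Rgcc were Cp, ceruloplasmin (0.52), Cebpd (0.60) and Gas1 (0.63). Nearest to Aqp1 were Eln, elastin (0.91), Nup210 (1.03) and Tppp (1.03). Eln was at 1.85 and 2.02 CPM in anomaly animal 1 and at 55.2 to 191 CPM in animals 2 and 3.

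Markers of other cells also moved with the groups, in data where 32.4% of all genes were called higher and 31% lower. The 6 markers of dividing cells summed to 198 to 681 CPM in anomaly libraries and 0.905 to 2.14 CPM in normal libraries, with all 6 called higher. Macrophage markers summed to 529 to 2732 CPM in anomaly libraries and 34.4 to 214 CPM in normal libraries, with 8 of 8 higher. Pericyte markers summed to 295 to 2605 CPM in anomaly libraries and 572 to 1015 CPM in normal libraries, with 4 of 6 higher and 1 lower. Among markers of lymphatic endothelium, 3 of 5 were higher and 1 was lower, at 121 to 294 CPM in anomaly libraries and 9.35 to 28.7 CPM in normal libraries. The part of these cells in the levels of the 6 capillary genes was not tested.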

How the data were processed

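RNA-seq was read from 12 libraries of mouse muscle, 2 pieces from each of 3 anomaly and 3 normal animals. Unstranded TruSeq libraries were made from poly-A RNA of snap-frozen tissue, per the labels' protocols. The tools named in the submitters' processing notes are STAR and limma, with build mm10 (GRCm38); versions are not given in the sources used here. The authors deposited log2 values of CPM with a common floor of -6.707. CPM was recovered by removing that floor, and whole reads by the steps of low values. All values were whole within 0.01 at low counts. For larger counts the tolerance grew with the count, so the check says little of the highest values. CPM of 1 was added, log2 values were averaged over the pieces of an animal, and limma 3.58.1 (R 4.3.3, with a trend, Benjamini-Hochberg at 0.05) was run on the 14687 genes averaging 1 CPM or more in either group. The test with the endothelial mean subtracted and the F test among anomaly animals used the same genes. Whole-read counting intervals cover counting error only. P-values measure the spread between these animals, and no label says more of how they are related. No permutation test was run, since 0.1 is the smallest two-sided p of 3 against 3 animals.

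The design had allowed for counts; since the table held log2 values, limma on log2 values was used. Genes were named by rule: the 6 markers, the up to 4 genes of each list with the smallest p (all genes where a list has 5 or fewer), the 3 nearest profiles of each marker, and Cdh5 and Pecam1. The members and lists were chosen with earlier results of these data known. Gene names came from the file for 14797 rows and from a reference table for 15503; Cavin1, Cavin2, Cavin3 and Ccl21a were matched by Ensembl identifier. Reads were counted without strand, and Plvap overlaps Gtpbp3 on the other strand, with no shared exon. On simulated data with 200 changed genes, the comparison of anomaly with normal muscle recovered 100% of 4-fold and 66% of 2-fold changes among 13995 genes at a coefficient of variation of 0.2 between animals, and 64% and 7% among 14018 genes at 0.4. Of the calls, 3.49% were false at 0.2 and 6.58% at 0.4. The simulation gave both groups the same spread and pieces none of their own, whereas 63.4% of genes were called in the data. It therefore does not give the recovery for the 6 genes. The alternatives were other pseudocounts, filters, scalings, single pieces, animals left out, a blocked fit, voom, Cdh5 or Pecam1 alone as the endothelial reference, and another gene length.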

Additional observations from a re-analysis of the deposited data

Results flagged for a closer look

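Among 104 groups of 6 libraries examined for 52 named genes, 9 held a library whose distance from its nearest neighbour exceeded 0.625 of the group's range; chance gives about 1 in 20. Car4 in piece 2 of anomaly animal 2 stood at 3.68 log2(CPM + 1), with the next anomaly library at 0.65. Aqp1 in piece 1 of normal animal 1 stood at 8.77, above the other normal libraries at 8.27 to 8.40.

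The other 7 were not among the 6 capillary genes. In anomaly libraries, Aqp4 stood high at 3.03 in piece 2 of animal 3, Aqp9 high at 2.71 in the shallow piece 1 of animal 1, and Esam low at 7.17 in that same piece. In normal libraries, piece 2 of animal 3 stood low for Cavin3 (2.75) and Bok (0.97) and high for Per3 (5.60), and piece 1 of animal 1 stood high for Ehd4 (5.98). All these values are log2(CPM + 1).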

How the results depend on the processing

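Plvap and Emcn kept direction and call in all 19 alternatives of the comparison with normal muscle. With no filter, 0 of the 6 genes were lower (Car4 -1.89, adjusted p 0.0634), 1 lipid gene and 0 aquaporins were higher, and on the scale of the endothelial mean 119 genes were higher and 28557 lower; with at least 5 CPM, 0 aquaporins were higher. Piece 1 alone gave Rgcc -0.17, Plvap 1.29 over the endothelial mean and 0 of the 6 genes higher there. Piece 2 alone gave Car4 -1.20, 0 of the 6 lower, 0 other capillary markers lower and 0 aquaporins higher. Library totals gave 8962 genes higher and 1850 lower, Car4 -1.33, 0 of the 6 lower, 6 lipid genes higher and 0 lower, and 1 sialomucin lower. This scaling moved the median of all genes to 0.97 log2, against 0.09 as deposited. A recomputed trimmed mean gave Rgcc -0.21, 0 aquaporins higher and a median of all genes of -0.33. Voom gave Car4 -3.68 and 0 of the 6 lower. The log2 values as deposited gave 334 genes higher over the endothelial mean. Without piece 2 of anomaly animal 2, an alternative chosen after seeing the data, Rgcc was -0.19. By the longest transcript, Emcn was at 61.9 CPM per kilobase in anomalies and 3.40 in normal muscle, Car4 at 4.43 and Gpihbp1 at 14.4 in normal muscle. With animals left out in turn, Car4 ran from -2.49 to -1.49, Gpihbp1 from 2.17 to 3.61, Aqp1 from -2.49 to 1.00, Rgcc from -0.20 to 0.77, and Plvap over the endothelial mean from 1.01 to 1.65. The number of the 6 genes that were higher was 2 to 3, that lower 0 to 1, and that higher over the endothelial mean 0 to 1, where all genes higher were 53 to 239. Counts ran from 1 to 4 for lipid genes higher, 1 to 2 for other capillary markers lower, 1 to 2 for sialomucins lower and 0 to 2 for aquaporins higher. Signs also turned for genes that were not called in either fit, and for Lmf1 (0.33) and Cd164 (0.40) with library totals. Gas1 was at -0.23 with piece 1, -0.075 without piece 2 of anomaly animal 2 and -0.30 with the trimmed mean, and ran from -0.41 to 0.62 with animals left out. Cp was at 0.048 with piece 2, 0.99 with totals and 0.16 with voom, and ran from -0.42 to 0.67. Aqp7 was at 0.43, Nup210 at 0.055 and Tppp at 0.15 with totals; with animals left out they ran from -1.19 to 0.51, -1.90 to 0.23 and -1.70 to 0.41. Eln was at -0.19 with the trimmed mean and ran from -0.98 to 1.96. Their causes were not tested. A limma fit of 12 libraries took the animal as a random block and the piece number as a replicate block. That number follows deposit order, so it does not match the letters of the labels across groups. It gave Plvap 4.58 (adjusted p = 1.65e-06) and Car4 -1.89 (0.0291) and changed no call of the 6 genes. Piece 1 minus piece 2 differences of an anomaly and a normal animal were also correlated over genes. The correlations were -0.11 to 0.15 over 9 pairs of animals, so little was shared by piece number. Depth limits Car4 and Aqp1 in piece 1 of anomaly animal 1, where 3 reads are 5.56 CPM.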

Other observations

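Within an animal, the gaps between some pairs of capillary genes were as follows. The pairs were picked without a rule. Plvap minus Gpihbp1, in log2(CPM + 1), was 3.10, 1.16 and 0.90 in anomaly animals 1, 2 and 3, and -0.23, -0.55 and 0.42 in the normal animals. Plvap minus Rgcc was 5.06, 4.38 and 3.53 in the anomaly animals and 0.54, -0.53 and -0.12 in the normal animals. Aqp1 minus Gpihbp1 was -2.53, 0.34 and 2.05 in the anomaly animals and 4.06, 3.42 and 3.97 in the normal animals. Plvap minus Car4 was 8.68, 7.60 and 8.45 in the anomaly animals and 1.67, 1.45 and 2.21 in the normal animals. In anomaly animal 1, with no Car4 read, the added 1 CPM sets the Car4 value. For each of these differences every anomaly animal lay on 1 side of every normal animal. The share of all gene pairs that do so was not counted, and 73% of single genes did so. These differences need no scaling between libraries apart from the added 1 CPM, and they were not tested.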
